A study of Homo sapiens with 4 samples.

Results

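The nucleoporin and nuclear transport genes are those that build the nuclear pore and move proteins and RNA through it. They were chosen by gene symbol (nucleoporins and their pore partners, importins, exportins, Ran and the Ran-binding series, the THO complex and the NXF1 export receptor), and only protein-coding genes were kept. In all, 45 such genes were among the 3905 genes that the authors listed as recovered with a YTHDF3 antibody in at least 1 of 2 cell lines. RefSeq (GRCh38.p14) holds 77 protein-coding genes that fit the same symbols, so 32 were in neither table.

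RNA immunoprecipitation followed by sequencing (RIP-seq) sets the RNA bound to an antibody's target (IP) against the starting RNA (input). The antibody was raised against YTHDF3, a cytoplasmic protein that reads N6-methyladenosine (m6A), a common modification of mRNA. There were 4 libraries, 1 each of IP and input from SiHa cells labelled as YTHDF3 knockout and 1 each of IP and input from SiHa, an established human cervical squamous carcinoma line. How the knockout was made, and whether it is a single clone, is not given in the sources used here, and no non-specific antibody was analysed. In cells labelled as lacking the target, recovery in the IP cannot be read as binding to YTHDF3. In the knockout 2340 genes were still listed, against 3648 in SiHa, and what retained their RNA was not tested.

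The nuclear pore is a ring of nucleoporins set in the nuclear envelope. Scaffold nucleoporins form its inner and outer rings, nucleoporins with phenylalanine-glycine (FG) repeats fill the channel and reach into the nucleus as a basket and into the cytoplasm as filaments, and transmembrane nucleoporins anchor it. Importins and exportins carry cargo through the FG repeats, with the GTPase Ran setting direction. Most mRNA leaves through NXF1, which is loaded with the help of the THO complex.

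Both tables held only genes called up by the authors, with a deposited fold of at least 2 and a p-value under 0.05. On the levels, that fold stood for an IP over input of at least 1.14 in the knockout and 0.996 in SiHa. An IP level above or about equal to input is therefore set by being listed and is not a finding, and a gene missing from a table either failed the thresholds or was not tested, with its level there unknown. Values below are the deposited levels, in a unit the files do not state, and log2 of the IP level over the input level in the same cell line. Since each group holds 1 library, replicate error could not be measured and differences were not tested across cultures. Sequencing depth is unknown. YTHDF3 itself was listed in SiHa, at 25.8 in the IP and 11.7 in the input, and was absent from the knockout table. Of 10 epithelial and squamous carcinoma markers, 0 were listed in the knockout, against 21.2% of all genes tested. In SiHa 5 were listed (KRT8, KRT18, EPCAM, CDH1 and SFN), against 27.0%. Of 15 markers of other cell types 0 were listed in either. Being listed depends on recovery in the IP and not on expression alone, so these counts do not tell the cell type. The IP columns were assigned because their names lack the word input. The lane in the knockout IP column differs from that of its sample title, and the SiHa IP title names no lane. Each IP level carries this doubt.

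Of the 77 genes, 29 (37.7%) were listed in the knockout and 44 (57.1%) in SiHa. The tables listed 21.2% of genes tested in the knockout and 27.0% in SiHa, or 10.8% of all RefSeq protein-coding genes in the knockout and 17.0% in SiHa. How many of the 77 were tested is not known. Restricted to an adjusted p of 0.05 or less in the authors' deposited tables, 24 of 77 (31.2%) were listed in the knockout, against 17.0% of all genes tested, and 39 of 77 (50.6%) in SiHa, against 21.8%. With a deposited fold of at least 4 the counts were 11 of 77 (14.3%) in the knockout, against 14.1% of all genes tested, and 18 of 77 (23.4%) in SiHa, against 14.2%. The family was thus listed more often than genes in general. It was chosen with earlier results of these data known, so its listed share is only a description. At the higher fold its share in the knockout was close to that of genes tested. The 77 may hold untested genes, which the base of genes tested leaves out, so these 2 shares are not strictly alike. The share of RefSeq protein-coding genes at that fold is not given here. Of the 29 knockout genes 28 were also in SiHa (96.6%, against 89.0% of all listed genes), and these were 63.6% of the 44 SiHa genes, against 57.1% of all listed genes. The 16 others in SiHa were listed there alone, and KPNA4 was the 1 gene listed in the knockout alone.

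Among listed genes, most of this family had a moderate ratio of IP to input. The median log2 IP over input was 0.96 in the knockout, against 1.61 over all genes of that table, and 0.86 in SiHa, against 1.04. An IP level at least 2-fold above input was found for 13 of 29 in the knockout (44.8%, against 73.8% of all listed genes) and for 17 of 44 in SiHa (38.6%, against 52.3%). The range was wide. It ran from 0.32 (NUP214) to 3.99 (TPR) in the knockout and from 0.18 (NUP188) to 2.47 (TPR) in SiHa. TPR, THOC1 and IPO7 were among the 4 highest in both cell lines. The 4 lowest were NUP214, NUP205, XPO1 and KPNA2 in the knockout and NUP188, IPO9, KPNB1 and XPO5 in SiHa. The role groups below are mostly small. Their counts stand beside the 21.2% of all genes tested that were listed in the knockout and 27.0% in SiHa.

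**Figure D1:**
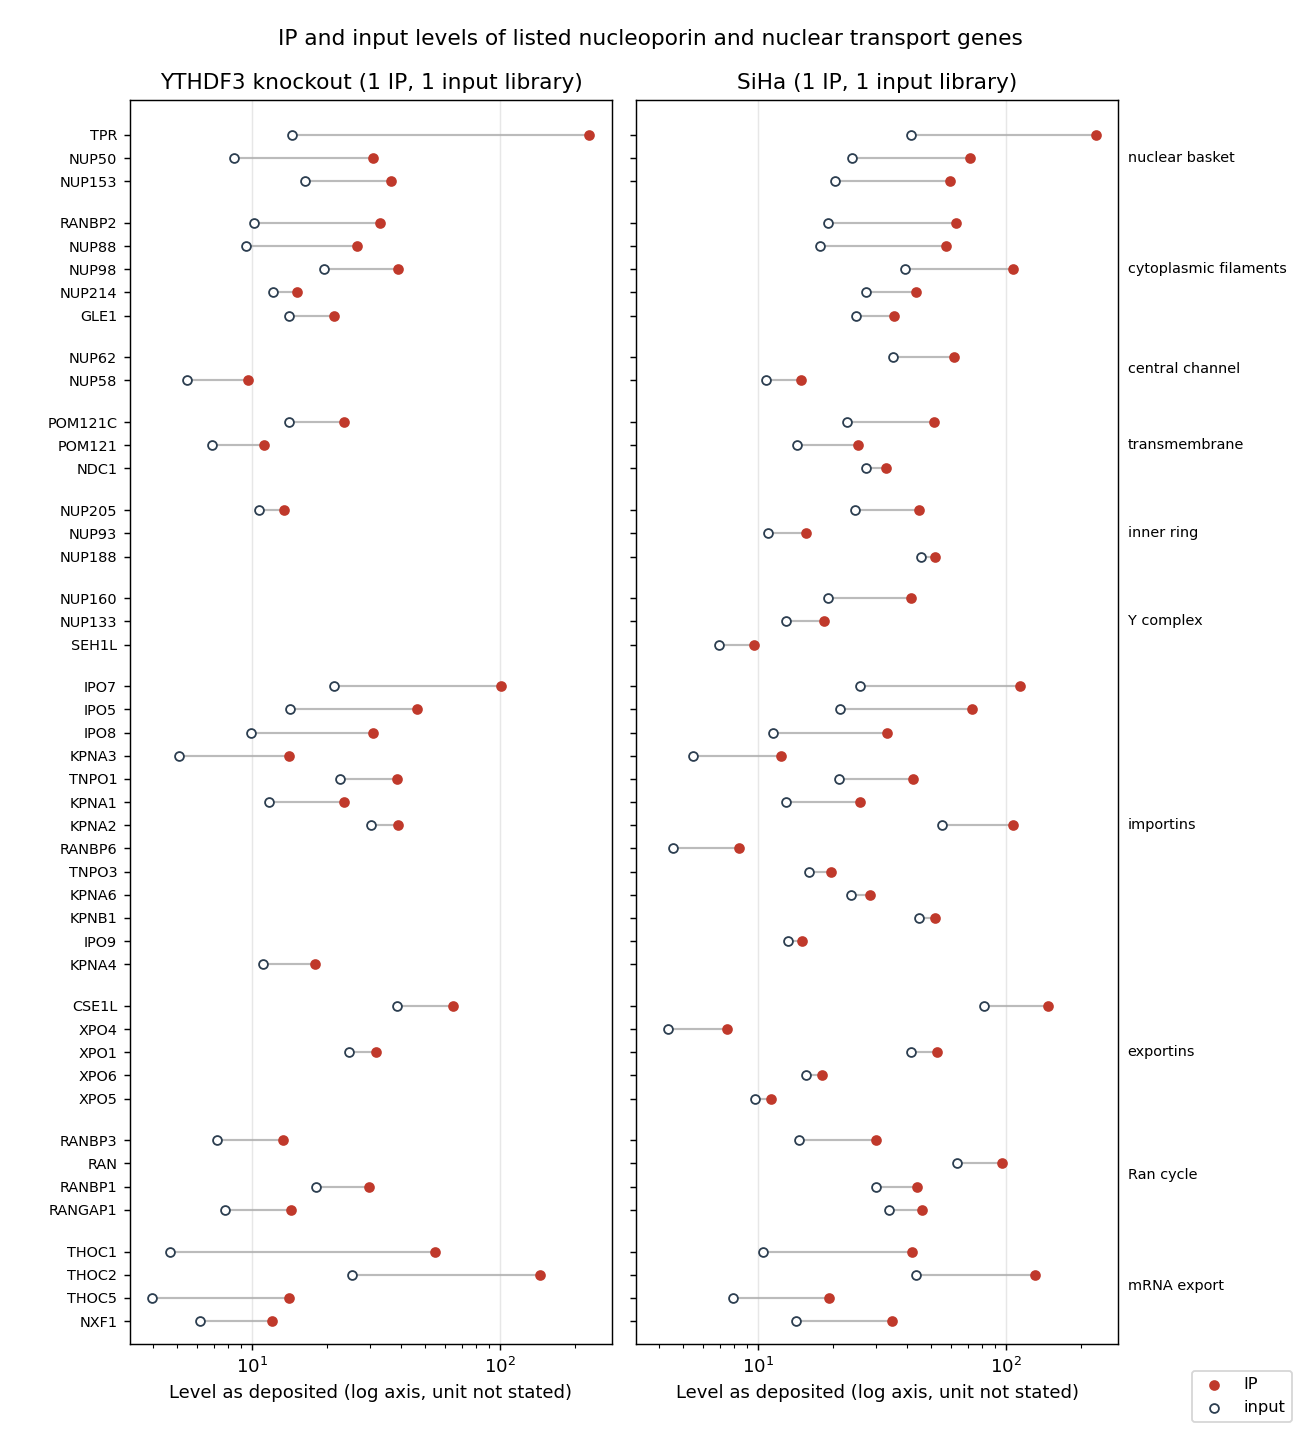
IP (filled) and input (open) level of each of the 45 listed genes, grouped by role, in knockout cells (left) and SiHa cells (right), on a log axis in the deposited unit. Each point is 1 library, a grey line joins the pair, and a row without points was not listed in that cell line. The longest line in both panels is that of TPR, with an IP of 229 and an input of 14.5 in the knockout and an IP of 231 and an input of 41.5 in SiHa.

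The nuclear basket was the 1 pore structure with all of its genes listed in both cell lines (3 of 3). TPR, the coiled-coil protein that forms the basket filaments (ENSG00000047410, GRCh38.p14 chromosome 1, 186311652 to 186375253), had a level of 229 in the IP and 14.5 in the input of the knockout, against 231 and 41.5 in SiHa. The IP was thus 15.8-fold above input in the knockout and 5.56-fold in SiHa. TPR was at percentile 99.4 of all ratios listed in the knockout and 98.3 of those in SiHa. In the authors' deposited tables its adjusted p was 6.89e-72 in the knockout and 1.65e-65 in SiHa, from a test on 1 IP and 1 input library each.

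NUP50, a basket protein that binds importin alpha, had a level of 30.8 in the IP and 8.47 in the input of the knockout, against 71.7 and 23.9 in SiHa. Both of its levels were lower in the knockout, and its log2 IP over input was 1.86 there and 1.58 in SiHa. RefSeq names 4 NUP50 pseudogenes, with which its reads may be shared. NUP153, the FG nucleoporin that tethers the basket, had a level of 36.2 in the IP and 16.4 in the input of the knockout, against 59.6 and 20.5 in SiHa. Its log2 IP over input was 1.15 in the knockout and 1.54 in SiHa. With the levels as deposited, the ratio was thus higher in the knockout for TPR and NUP50 and lower for NUP153, and after centring on all genes listed in both it was lower for NUP50 too.

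On the cytoplasmic side 5 of 8 genes were listed, all 5 in both cell lines. RANBP2, the large filament protein also called NUP358, had a level of 32.8 in the IP and 10.2 in the input of the knockout, against 63.0 and 19.2 in SiHa. With the levels as deposited, IP and input differed alike between the cell lines, and the ratio was 3.22-fold in the knockout and 3.28-fold in SiHa. After centring on all genes listed in both, the knockout minus SiHa difference in log2 ratio was -0.40. RefSeq holds 7 RGPD genes, close relatives of RANBP2, and 0 of them were listed, so reads shared with them make the RANBP2 values uncertain. NUP88, a filament nucleoporin, had a level of 26.4 in the IP and 9.47 in the input of the knockout, against 57.2 and 17.8 in SiHa. NUP98, whose gene also encodes the outer ring protein NUP96, had a level of 38.9 in the IP and 19.5 in the input of the knockout, against 107 and 39.3 in SiHa. For NUP98 the IP was thus 2.00-fold above input in the knockout and 2.72-fold in SiHa.

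NUP214, the filament nucleoporin that partners NUP88, had the lowest log2 IP over input of the family in the knockout, 0.32, against 0.67 in SiHa. Its IP level was 15.1 and its input level 12.1 in the knockout, against 43.4 and 27.4 in SiHa. Its adjusted p in the authors' deposited tables was 0.164 in the knockout and 7.72e-06 in SiHa. GLE1, which activates an RNA helicase at the pore exit, had a level of 21.5 in the IP and 14.1 in the input of the knockout, against 35.2 and 24.8 in SiHa. AAAS, NUP42 and RAE1, the other 3 genes of this side, were not listed.

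Of 4 channel genes, 1 was listed in the knockout and 2 in SiHa, and of 7 transmembrane genes 2 and 3. Beside these stand 21.2% of all genes tested in the knockout and 27.0% in SiHa. The median log2 IP over input of the channel genes was 0.82 in the knockout and 0.65 in SiHa. That of the transmembrane genes was 0.71 and 0.83. All were below the medians over all listed genes, 1.61 and 1.04, though POM121C in SiHa was above, at 1.16. NUP58, an FG protein of the central channel, had a level of 9.64 in the IP and 5.48 in the input of the knockout, against 14.9 and 10.7 in SiHa. NUP62, its channel partner, was listed in SiHa alone, at 61.8 in the IP and 34.9 in the input. Of the transmembrane group, POM121 had a level of 11.1 in the IP and 6.93 in the input of the knockout, against 25.4 and 14.3 in SiHa.

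POM121C, a near-identical copy of POM121, had a level of 23.5 in the IP and 14.1 in the input of the knockout, against 51.1 and 22.8 in SiHa. Reads may be split between these copies, so the values of both are uncertain. NDC1, a membrane anchor of the pore, was listed in SiHa alone, at 32.9 in the IP and 27.4 in the input. NUP54, NUP62CL, NUP210, NUP210L, POM121L2 and POM121L12 were in neither table.

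Ring scaffold genes were listed mainly in SiHa, where more genes were listed in general. In the outer ring Y complex, 0 of 8 genes were listed in the knockout, against 21.2% of all genes tested. In SiHa 3 were listed, against 27.0%. With 8 genes, neither count is set apart from that of genes in general. The 8 leave out NUP98, which also encodes the outer ring protein NUP96 and was counted on the cytoplasmic side. They also leave out AHCTF1, a Y complex partner outside the symbol rule. NUP98 and AHCTF1 were listed in both cell lines, so the count of 0 depends on this sorting. NUP160 had a level of 41.4 in the IP and 19.2 in the input in SiHa, NUP133 18.5 and 12.9, and SEH1L 9.67 and 6.93. NUP160 was the 1 gene of the SiHa-only group above the median ratio of the SiHa table, at a log2 IP over input of 1.11. In the inner ring, 1 of 5 genes was listed in the knockout and 3 in SiHa, beside the same shares of all genes tested. NUP205 (chromosome 7, 135557917 to 135648753) had a level of 13.4 in the IP and 10.7 in the input of the knockout, against 44.6 and 24.6 in SiHa.

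The NUP205 ratio was 1.25-fold in the knockout and 1.81-fold in SiHa, and its adjusted p in the authors' deposited tables was 0.203 in the knockout and 7.68e-07 in SiHa. NUP188, its inner ring relative, had a level of 51.5 in the IP and 45.5 in the input in SiHa, and NUP93, the ring linker, 15.6 and 10.9. Sorted by textbook class after the values were seen, 8 of 11 FG nucleoporins were listed in the knockout (72.7%, against 21.2% of all genes tested). In SiHa 9 were listed (81.8%, against 27.0%), with 8 in both. Of 13 ring scaffold genes, 1 was listed in the knockout (7.69%, against 21.2% of all genes tested and 10.8% of RefSeq protein-coding genes) and 6 in SiHa (46.2%, against 27.0% and 17.0%), with 1 in both. NUP98 was not counted among the 13. With so few genes, the knockout count of scaffold genes is not set apart from that of genes in general. The median log2 IP over input in SiHa was 1.16 for the listed FG genes and 0.51 for the listed scaffold genes, against 1.04 over all listed genes. In the knockout it was 0.91 for the FG genes, against 1.61 over all listed genes, and 0.33 for the 1 scaffold gene. With classes set after the values were seen, this contrast is only a description.

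**Figure D2:**
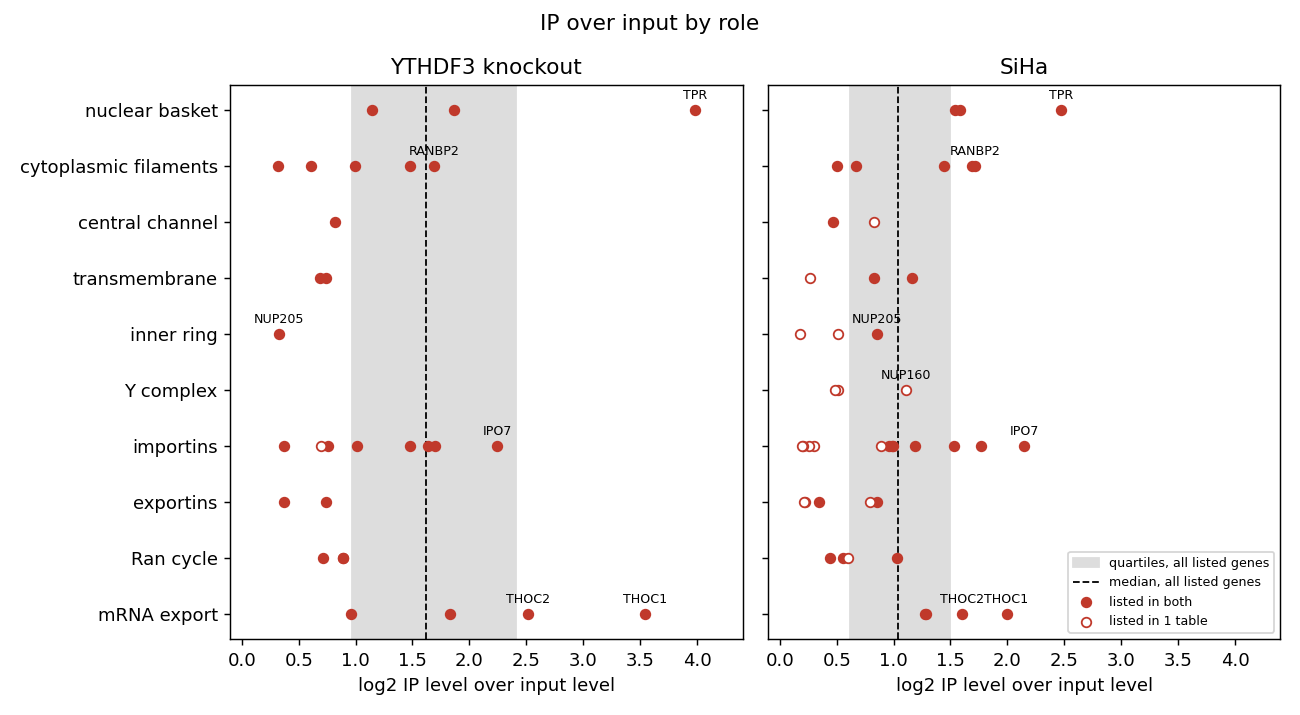
Log2 IP over input of each listed gene by role, in knockout cells (left) and SiHa cells (right). Each point is 1 gene from 1 IP and 1 input library, filled where it is listed in both cell lines, and the grey band and dashed line are the quartiles and median of all listed genes (median 1.61 in the knockout and 1.04 in SiHa). TPR and THOC1 lie to the right of the band in both panels, and the Y complex row is empty in the knockout. NUP98, which also encodes the outer ring protein NUP96, is drawn under cytoplasmic filaments.

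The mRNA export genes had the highest group median in the knockout, a log2 IP over input of 2.18, against 1.45 in SiHa, with 4 of 9 genes listed in both. THOC1, a core subunit of the THO complex (chromosome 18, 214520 to 268047), had a level of 54.6 in the IP and 4.67 in the input of the knockout, against 41.8 and 10.5 in SiHa. The THOC1 ratio was 11.7-fold in the knockout and 3.98-fold in SiHa. THOC2, the large THO scaffold subunit (chromosome X, 123600569 to 123733052), had a level of 146 in the IP and 25.4 in the input of the knockout, against 131 and 43.2 in SiHa. For THOC1 and THOC2 the IP level was higher and the input level lower in the knockout.

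THOC5, another THO subunit, had a level of 14.1 in the IP and 3.95 in the input of the knockout, against 19.4 and 7.93 in SiHa. Its log2 IP over input was 1.83 in the knockout and 1.29 in SiHa. NXF1, the export receptor itself, had a level of 12.01 in the IP and 6.16 in the input of the knockout, against 34.6 and 14.2 in SiHa. Unlike the 3 THO genes it had the lower ratio in the knockout, 1.95-fold against 2.43-fold in SiHa, and its adjusted p in the authors' deposited tables was 0.0502 in the knockout and 6.65e-07 in SiHa. THOC3, THOC6, THOC7, NXT1 and NXT2 were in neither table.

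Among the importins, 8 of 19 genes were listed in the knockout (against 21.2% of all genes tested) and 12 in SiHa (against 27.0%), with 7 in both. IPO7, a beta-type importin of ribosomal proteins (chromosome 11, 9384652 to 9448127), led the group. It had a level of 101 in the IP and 21.4 in the input of the knockout, against 114 and 25.7 in SiHa, so the ratio was 4.73-fold in the knockout and 4.44-fold in SiHa. IPO5, another importin of ribosomal proteins, had a level of 46.4 in the IP and 14.3 in the input of the knockout, against 73.0 and 21.4 in SiHa. IPO8, the closest relative of IPO7, had a level of 30.7 in the IP and 9.87 in the input of the knockout, against 33.1 and 11.5 in SiHa. For these 3 importins the log2 ratio, with the levels as deposited, differed by 0.11 or less between the cell lines. After centring on all genes listed in both, the knockout minus SiHa difference was -0.28 for IPO7, -0.44 for IPO5 and -0.26 for IPO8.

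The importin alpha adaptors, which bind classical nuclear localisation signals, spread more widely. KPNA2 (chromosome 17, 68035735 to 68046854) had a level of 38.9 in the IP and 30.1 in the input of the knockout, against 107 and 55.1 in SiHa. Its ratio was 1.29-fold in the knockout and 1.94-fold in SiHa. RefSeq names 3 KPNA2 pseudogenes, with which its reads may be shared. KPNA3 had a level of 14.1 in the IP and 5.07 in the input of the knockout, against 12.4 and 5.44 in SiHa. KPNA1 had a level of 23.5 in the IP and 11.7 in the input of the knockout, against 25.8 and 13.0 in SiHa. KPNA3 and KPNA1 thus differed little between the cell lines in either level, whereas both levels of KPNA2 were lower in the knockout. KPNA4 was listed in the knockout alone, at 18.0 in the IP and 11.1 in the input, with an adjusted p of 0.0270 in the authors' deposited table.

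TNPO1, the import receptor of hnRNP proteins, had a level of 38.3 in the IP and 22.7 in the input of the knockout, against 42.2 and 21.1 in SiHa. The other 5 importins were listed in SiHa alone. KPNB1, importin beta itself, had a level of 51.5 in the IP and 44.6 in the input there, and KPNA6 28.2 and 23.6. TNPO3, which imports splicing factors of the SR family, had 19.7 and 16.0, IPO9 15.0 and 13.2, and RANBP6 8.41 and 4.54. With a log2 IP over input of 0.19 to 0.30, KPNB1, KPNA6, TNPO3 and IPO9 were at percentile 5.51 to 8.80 of the SiHa table. RANBP6 was higher, at a log2 IP over input of 0.89 and percentile 40.9.

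The listed exportins and Ran cycle genes had ratios below the median of all listed genes in each cell line. The highest of them in SiHa, RANBP3, was close to it, at a log2 IP over input of 1.03 against 1.04. Of 8 exportins, 2 were listed in the knockout, near the 21.2% of all genes tested, and 5 in SiHa, against 27.0%. XPO1 (CRM1), which exports proteins with leucine-rich signals, had a level of 31.8 in the IP and 24.6 in the input of the knockout, against 52.7 and 41.5 in SiHa. CSE1L, which returns importin alpha to the cytoplasm, had a level of 64.4 in the IP and 38.5 in the input of the knockout, against 147 and 81.1 in SiHa. For both, IP and input levels were lower in the knockout, and with the levels as deposited the ratio was close between the cell lines. It was 1.29-fold in the knockout and 1.27-fold in SiHa for XPO1, and 1.67-fold in the knockout and 1.81-fold in SiHa for CSE1L. After centring on all genes listed in both, the knockout minus SiHa difference in log2 ratio was -0.35 for XPO1 and -0.49 for CSE1L. In SiHa alone were XPO5, the exporter of microRNA precursors (11.3 in the IP and 9.73 in the input), XPO6, an exporter of actin (18.2 and 15.6), and XPO4 (7.51 and 4.34).

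Of the 4 Ran cycle genes, 3 were listed in the knockout and 4 in SiHa. RANGAP1, the GTPase activator of Ran, had a level of 14.4 in the IP and 7.76 in the input of the knockout, against 45.7 and 33.7 in SiHa. Its input level was 4.34-fold lower in the knockout, the largest such difference in the family. RANBP1, a cofactor of that activator, had a level of 29.7 in the IP and 18.2 in the input of the knockout, against 43.9 and 29.9 in SiHa. RANBP3, an XPO1 cofactor, had a level of 13.3 in the IP and 7.21 in the input of the knockout, against 30.0 and 14.7 in SiHa. RAN was listed in SiHa alone, at 96.3 in the IP and 63.5 in the input, and RefSeq names 9 RAN pseudogenes, so its values are uncertain. RANBP9 and RANBP10, which share the Ran-binding name but belong to a ubiquitin ligase complex, were in neither table.

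Between the cell lines, the 28 genes listed in both had lower levels in the knockout in both kinds of library. The tables may have been normalised separately, so these differences are set beside those of all 2083 genes listed in both. The input level was lower in the knockout for 27 of 28 genes, where 75.3% of all shared genes were lower, and TNPO1 was the exception. In bulk RNA, fewer cells in a given state and less RNA per cell cannot be told apart. The median log2 ratio of input level, knockout over SiHa, was -0.91 for the family and -0.52 for all shared genes, and 22 of 28 were below the median of all. At least 2-fold lower input was found for 12 of 28 genes (42.9%), against 25.5% of all shared genes, and at least 2-fold higher input for 0, against 2.64%. The IP level was lower for 25 of 28, where 55.4% of all shared genes were lower, and the exceptions were THOC1, THOC2 and KPNA3. The median log2 ratio of IP level was -0.73 for the family and -0.12 for all shared genes, with 23 of 28 below the median of all. Of the 28, 12 (42.9%) were at least 2-fold lower, against 16.4%, while 0 were at least 2-fold higher, against 11.0%. The largest differences in IP level were those of NUP205, 3.32-fold lower in the knockout, and RANGAP1, 3.18-fold lower.

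**Figure D3:**
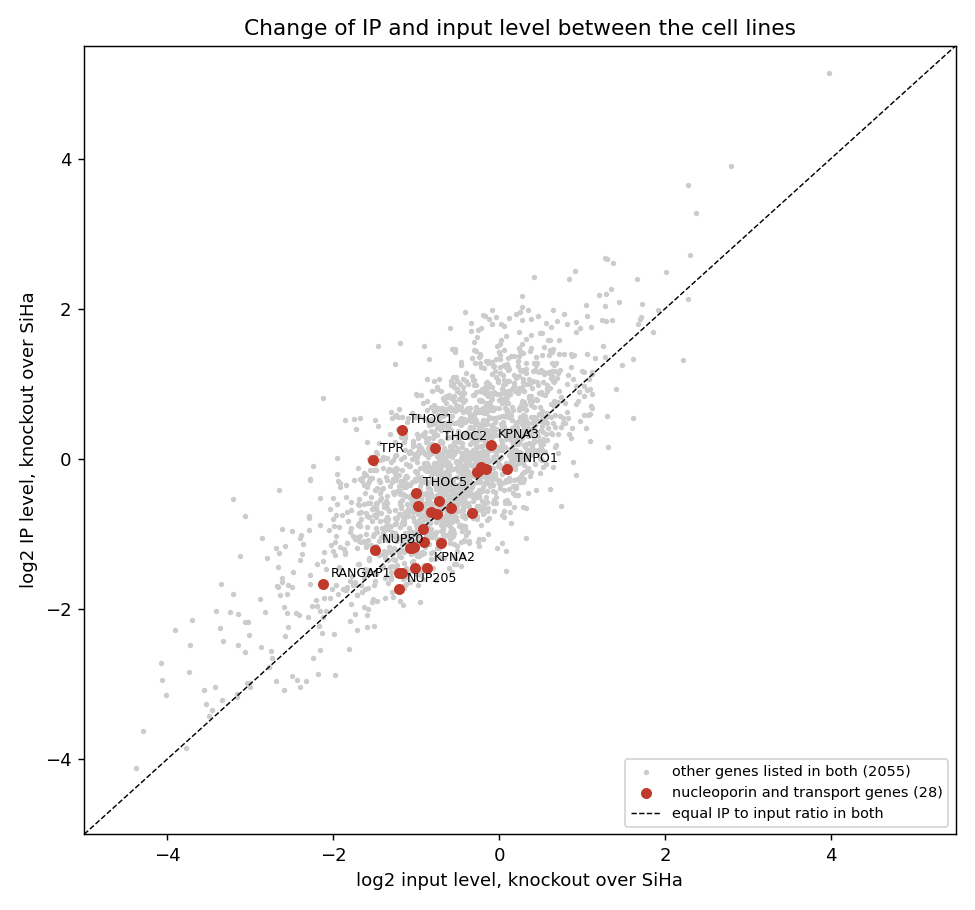
Log2 ratio of the input level (horizontal) and of the IP level (vertical), knockout over SiHa, for the 28 family genes (red) and the other genes listed in both cell lines (grey). Each point is 1 gene from 4 single libraries, and on the dashed line the ratio of IP to input is equal in both. Most family genes lie below 0 on both axes and near the line, and TPR, THOC1 and THOC2 lie above it.

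With the levels as deposited, the ratio of IP to input was higher in the knockout for some family genes and lower for as many others. The knockout minus SiHa difference in log2 IP over input had a median of -0.0044 over the 28 genes, with quartiles of -0.26 and 0.28, against a median of 0.37 over all shared genes. The difference was above 0 for 14 of 28 genes, against 72.9% of all shared genes. It was at least 2-fold higher in the knockout for 2 of 28 (7.14%), THOC1 and TPR, against 21.0% of all shared genes, and at least 2-fold lower for 0, against 0.480%. The zero of this scale depends on the scaling. With the deposited folds 8 of 28 genes were higher in the knockout, and with centring on all shared genes 5 were. Those 5, THOC1, TPR, THOC2, THOC5 and RANGAP1, were higher under each of the 3 scalings, and 14 genes were lower under each.

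THOC1 had the largest difference, 1.55, at percentile 95.1 of all shared genes, followed by TPR at 1.51 (percentile 94.3) and THOC2 at 0.92 (percentile 75.9). For TPR the IP levels of the cell lines were nearly equal, with a log2 ratio of -0.01, and its input level was 2.87-fold lower in the knockout. At the other end KPNA2 was at -0.59 (percentile 4.13), NUP205 at -0.53 (percentile 5.33) and NUP98 at -0.45 (percentile 8.02). For these 3 genes the IP level was 2.75-fold lower (KPNA2 and NUP98) or 3.32-fold lower (NUP205) in the knockout. Without TPR and the 3 THO genes the other 24 ranged from -0.59 to 0.45. The genes kept much of their order between the cell lines, with a Spearman rho of 0.87 and a Pearson r of 0.84 over 28 genes, against a rho of 0.72 over all shared genes. These correlations describe genes that share the same 4 libraries and that are not independent.

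**Figure D4:**
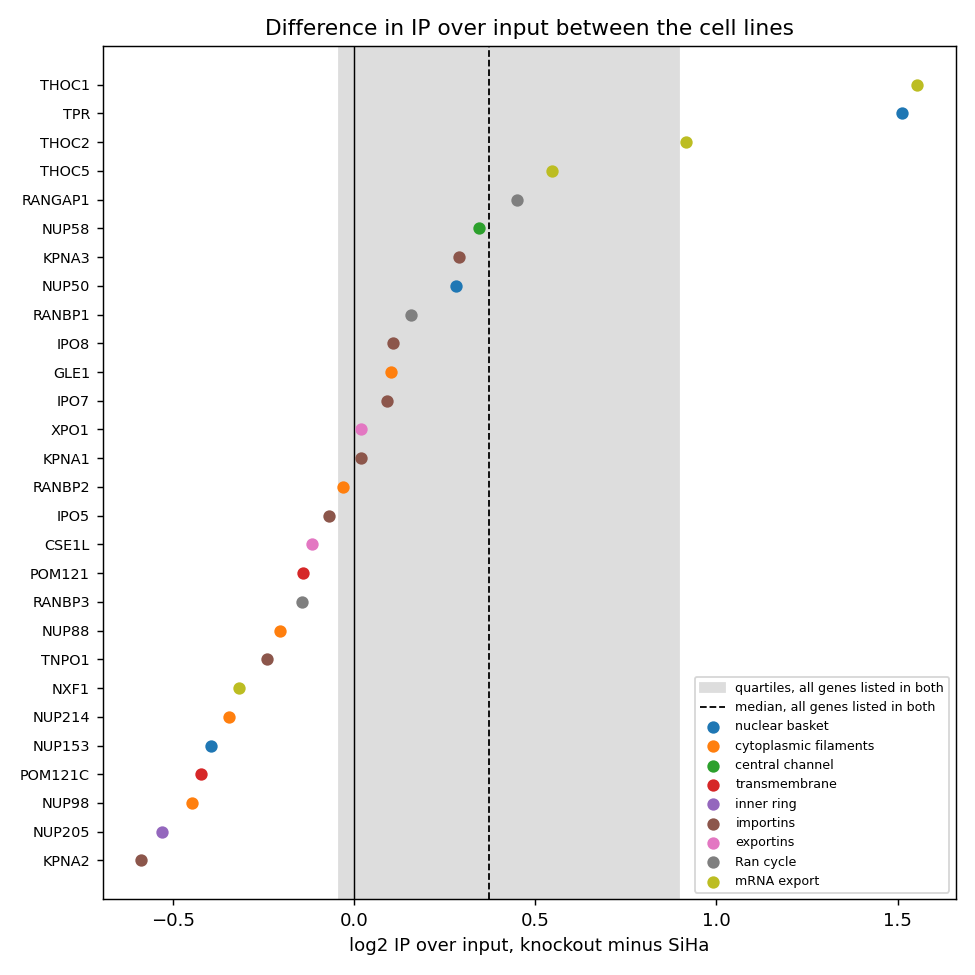
Knockout minus SiHa difference in log2 IP over input for the 28 genes listed in both cell lines, coloured by role, with the quartiles (grey band) and median (dashed line, 0.37) of all genes listed in both. Each point is 1 gene from 4 single libraries, and the position of 0 depends on how the tables are scaled. Only 5 genes lie to the right of the dashed line, from RANGAP1 at 0.45 to THOC1 at 1.55.

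The 16 genes listed in SiHa alone had low ratios in SiHa. Their median log2 IP over input there was 0.39, against 1.18 for the 28 listed in both. Over all genes the median was 0.72 for those listed in SiHa alone and 1.32 for those listed in both. Of the 16 family genes above the median ratio of the SiHa table, 15 were listed in the knockout (93.8%, against 76.7% of all genes above it), and of the 28 at or below it 13 were (46.4%, against 37.5%). Within the SiHa-only group 5 genes had an adjusted p above 0.05 in the authors' deposited table for SiHa: SEH1L (0.113), XPO4 (0.109), XPO5 (0.153), IPO9 (0.0873) and RANBP6 (0.0690). In the knockout the authors' deposited table gave an adjusted p above 0.05 for NUP58 (0.132), POM121 (0.126), NUP214, NUP205 and NXF1.

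Partners of the pore outside the symbol rule were set beside it. Of 21 mRNA export adaptors, 6 were listed in the knockout (28.6%, against 21.2% of all genes tested and 10.8% of RefSeq protein-coding genes). In SiHa 6 were listed (28.6%, against 27.0% and 17.0%), with 5 in both. These shares were nearer to those of genes tested and above those of RefSeq protein-coding genes. How many of the 21 were tested is not known. NCBP3, a cap-binding protein, had a log2 IP over input of 2.55 in the knockout and 1.69 in SiHa, the nuclear helicase DDX39A 2.33 in the knockout and 1.35 in SiHa, and the cap-binding NCBP1 1.17 in the knockout and 1.49 in SiHa. DDX19B, the helicase of the pore exit that GLE1 activates, was listed in SiHa alone at 1.32. Of 20 nuclear envelope and lamina genes, 6 were listed in the knockout (30.0%, against 21.2% and 10.8%). In SiHa 11 were listed (55.0%, against 27.0% and 17.0%), with 6 in both. TOR1AIP1, an inner nuclear membrane protein, was at 1.84 in the knockout and 1.86 in SiHa, and the nesprin gene SYNE2 at 2.63 in the knockout and 1.26 in SiHa. AHCTF1 (ELYS), which seeds pore assembly on chromatin by recruiting the Y complex, was at 1.70 in the knockout and 1.26 in SiHa. LMNB1, a lamin gene, had an input level of 7.22 in the knockout and 58.4 in SiHa, at a log2 IP over input of 0.84 in the knockout and 0.82 in SiHa. Its log2 ratio of input level, knockout over SiHa, was -3.01, the lowest of the 6 envelope and lamina genes listed in both. Their median was -1.51, against -0.52 over all shared genes. PHAX, the export adaptor of U snRNA, was listed in both, at 1.33 in the knockout and 1.01 in SiHa, and the SUMO protease gene SENP1 was listed in SiHa alone, at 0.35.

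The genes of the family lie on 17 chromosomes. The 45 listed genes had a median genomic span of 63602 bases, against 32174 bases for the 32 that were not listed, and the medians were 53032 for all listed protein-coding genes and 24092 for all protein-coding genes. Within the family, span followed the ratio only weakly, with a Spearman rho of 0.07 over 29 genes in the knockout and 0.10 over 44 in SiHa. Of the 45 genes, 31 overlap the span of another annotated gene and 12 have pseudogenes named after them. RAN (9), NUP50 (4), KPNA2 (3) and TNPO1 (3) have the most, and reads of all 12 may be shared with these copies. The kit keeps strand, per the labels' protocols, but whether counting used it is not given in the sources used here, so reads from overlapping genes may be included.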

How the data were processed

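RIP-seq was measured in 4 libraries. The authors deposited, per cell line, a thresholded table with a signal (level) per gene for IP and input, a log2 fold change, a p-value and an adjusted p-value. Per the submitters' processing notes FastQC 0.11.7 and the builds GRCh38 and hg38 were used. The choice of aligner, counting tool, unit and test is not given in the sources used here. Levels were not whole numbers, so depth and counting intervals are unknown and no count test was run.

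The deposited log2 fold change equalled log2 of the IP signal over the input signal plus 0.81 in the knockout and 1.01 in SiHa, and the plain ratio was used here. The deposited adjusted p equalled p times the number tested over its rank, which gave 11034 and 13529 genes tested, a step checked on simulated data. Tables were joined by Ensembl identifier with pandas 2.3.3 under Python 3.11.15, and names, spans and the 77-gene family came from RefSeq. Members and lists were chosen with earlier results of these data known. Full values are given by role for the genes with the 3 highest and 3 lowest SiHa ratios, for extreme differences and for the knockout-only gene. Transcript and protein sequences were not used here. Of the partner gene lists, 1 gene and 1 list's count are not reported here.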

Additional observations from a re-analysis of the deposited data

How the results depend on the processing

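No paired analysis was possible because each group holds 1 library. For the same reason no library could be left out. An adjusted p of 0.05 or less, or a level of 10 or more, kept each count of listed genes within 1.5 times. With a deposited fold of 4 or more the counts were 11 in the knockout, 18 in SiHa and 11 in both. The median log2 IP over input in the knockout (0.96) was 1.78 with the deposited log2 fold change, 0.86 with a pseudocount of 1, 0.98 with a level of 10 or more and 0.98 over genes listed in both. The median in SiHa (0.86) was 1.86 with the deposited log2 fold change, 0.82 with the pseudocount and 1.18 over genes listed in both. The median knockout minus SiHa difference (-0.0044) was -0.028 with the pseudocount, -0.029 with a level of 10 or more, -0.38 after centring on all shared genes and -0.20 with the deposited folds. The median log2 ratio of input level, knockout over SiHa, was -0.85 with the pseudocount and -0.39 after centring, and that of IP level -0.71 and -0.61. The deposited folds and the centring shift each gene alike by construction, by -0.19 and -0.37 for the difference in ratio. A pseudocount of 1 draws each log2 ratio of levels toward 0 by construction. The remaining settings changed which genes were counted.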
